A study of Mus musculus with 6 samples.

Results

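The copines are a family of calcium-dependent, phospholipid-binding proteins. The members described here are the 7 genes Cpne1, Cpne2, Cpne3, Cpne4, Cpne5, Cpne7 and Cpne8, found by symbol among the 23608 rows of the deposited count table, which lists 9 copine genes in all. The family was chosen by measured values, because Cpne2 was raised in the comparison of oil with tamoxifen. The values of the members in that comparison are therefore a description. No p-value is given for them, and where a fit's calls of members are counted, the count shows only how that fit treated genes already chosen for their difference.

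A copine carries a pair of C2 domains at its amino end, which bind acidic membranes when cytosolic calcium rises, and a carboxy-terminal A domain related to that of integrins. The A domain has been described as a platform that takes partner proteins, among them kinases, phosphatases and ubiquitin-like conjugating enzymes, to the membrane. Copines are thus placed among the proteins that read calcium signals, beside annexins and other C2-domain proteins, and copine III has been found in myeloid cells.

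The samples were leukaemia cells driven by AE9a, a truncated AML1-ETO fusion protein, with the genotype Usp18+/f UBCER-Cre. One copy of Usp18, which encodes an ISG15-specific protease that restrains interferon signalling, was floxed, and the Cre recombinase, expressed in all tissues of the donor line, was of the tamoxifen-activated kind. Diseased wild-type C57BL/6 recipients, whose own cells lacked the Cre, received oil (3 libraries) or tamoxifen (3 libraries), and Lin- c-Kit+ GFP+ spleen cells were sorted 3 days after the first injection for bulk RNA sequencing. Both groups carried the floxed allele, AE9a and the Cre, so that tamoxifen itself, Cre activity and Usp18 loss cannot be told apart in this comparison; the labels give no age, and the study's methods describe adult mice of both sexes.

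Library totals ran from 17118964 to 20741399 estimated counts, at which 3 counts equal 0.145 to 0.177 CPM, the count scaled to library size and multiplied by 1e6. The targeted gene did not follow the labels. The oil libraries 1, 3 and 4 held 9.12, 10.9 and 11.2 CPM of Usp18, whereas tamoxifen 1, 2 and 4 held 15.1, 28.0 and 19.4 CPM, so that it was higher in each library labelled tamoxifen (log2 fold change 0.998, SE 0.23, edgeR adjusted p = 0.0739). It passed the threshold with DESeq2, with no filter on low counts, and on leaving out tamoxifen 4 (log2 fold change 1.04). A count over the whole gene does not separate the floxed copy from the intact one. Every direction below is therefore one between sets of libraries as labelled. Tamoxifen 4 also stood apart from the others of its group, since its log2 CPM values correlated more closely with the oil libraries (r of 0.982 to 0.985 across genes) than with tamoxifen 1 (0.973) and tamoxifen 2 (0.970), and the fold changes of the copines and of the genes described with library values below are given with and without it. In bulk samples fewer cells of a type and less RNA per cell cannot be told apart.

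Cpne2 was the member with the clearest separation between the groups. In GENCODE M21 (GRCm38) the gene lies on the plus strand at chr8:94532990-94570531, with 16 exons in its longest coding transcript. It had 30.4, 33.5 and 34.3 CPM in oil 1, 3 and 4, compared with 78.8, 103.2 and 75.0 CPM in tamoxifen 1, 2 and 4. The groups did not overlap, and the lowest library labelled tamoxifen held more than any oil library. The means were 32.7 ± 2.06 CPM and 85.7 ± 15.3 CPM (SD, n = 3 each), a 2.62-fold difference with a log2 fold change of 1.39 (SE 0.14). Without tamoxifen 4 the log2 fold change was 1.47.

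Cpne5, a copine known mainly from nervous tissue and B cells, had the largest fold change among the measured members, at low counts. It lies on the minus strand at chr17:29155556-29238167. Its estimated counts were 13, 25 and 20 in oil 1, 3 and 4, compared with 66.5, 170 and 41 in tamoxifen 1, 2 and 4, equal to 0.732, 1.21 and 1.03 CPM and to 3.65, 10.04 and 2.27 CPM. All libraries labelled tamoxifen were above all oil libraries, but they were spread widely, with tamoxifen 2 far above the other two. The means were 0.991 ± 0.242 and 5.32 ± 4.15 CPM (SD, n = 3 each), with a log2 fold change of 2.40 (SE 0.57) that was 2.76 without tamoxifen 4 and 1.56 without tamoxifen 2. An uncurated transcript on the other strand, AC162182.2, overlaps exons of Cpne5, and the strand setting of the counting was not given in the sources used here.

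Cpne3 encodes copine III, which binds the receptor ErbB2 and the scaffold RACK1, and lies on the minus strand at chr4:19519254-19570108. It showed a small difference with tight libraries. It had 44.5, 46.4 and 42.3 CPM in oil 1, 3 and 4, compared with 52.8, 53.1 and 56.1 CPM in tamoxifen 1, 2 and 4. The groups did not overlap, although the means of 44.4 ± 2.08 and 54.0 ± 1.80 CPM (SD, n = 3 each) differed by only 0.28 on the log2 scale (SE 0.09), and by 0.26 without tamoxifen 4. Here tamoxifen 4 was the highest library.

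Cpne1, a widely expressed copine reported to act on the NF-kB subunit p65, was level between the groups. Located on the minus strand at chr2:156071842-156111965, it had 83.9, 85.9 and 98.5 CPM in oil 1, 3 and 4, compared with 80.9, 93.6 and 90.4 CPM in tamoxifen 1, 2 and 4. The groups overlapped, and the log2 fold change was -0.02 (SE 0.10), with a sign that turned when oil 4 or tamoxifen 1 was left out and a value of -0.04 without tamoxifen 4. Exons of Cpne1 overlap those of Rbm12 and Gm28036 on the same strand, so that its counts are uncertain where reads could be split between these genes. Rbm12 itself had a log2 fold change of -0.21 (SE 0.13, edgeR adjusted p = 0.372).

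Cpne7, on the plus strand at chr8:123117374-123135182, was low and varied within both groups. Its estimated counts were 51.5, 23 and 39 in oil 1, 3 and 4, compared with 28, 94 and 40.5 in tamoxifen 1, 2 and 4. Tamoxifen 2 was the highest library and oil 3 the lowest, and the groups overlapped. The log2 fold change of 0.62 (SE 0.54) became -0.10 when tamoxifen 2 was left out, so that 1 library set its direction, and was 0.82 without tamoxifen 4. A high tamoxifen 2 was thus shared by Cpne2, Cpne5 and Cpne7. Exons of Cpne7 overlap the microRNA gene Mir7080 on the same strand. Gm20388, a coding gene on that strand, overlaps Cpne7 without sharing exon bases.

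The remaining members, Cpne4 and Cpne8, were not detected above the level that a count of 0 allows. Cpne4, a copine of the nervous system, had 0 counts in all 6 libraries, which allows up to 0.145 to 0.177 CPM in a library for counting error only. Cpne8 had 0.5 counts in tamoxifen 1 and 0 elsewhere. Of the copine genes outside the chosen set, Cpne6 had at most 1 count and Cpne9 at most 4 counts in a library.

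**Figure D1:**
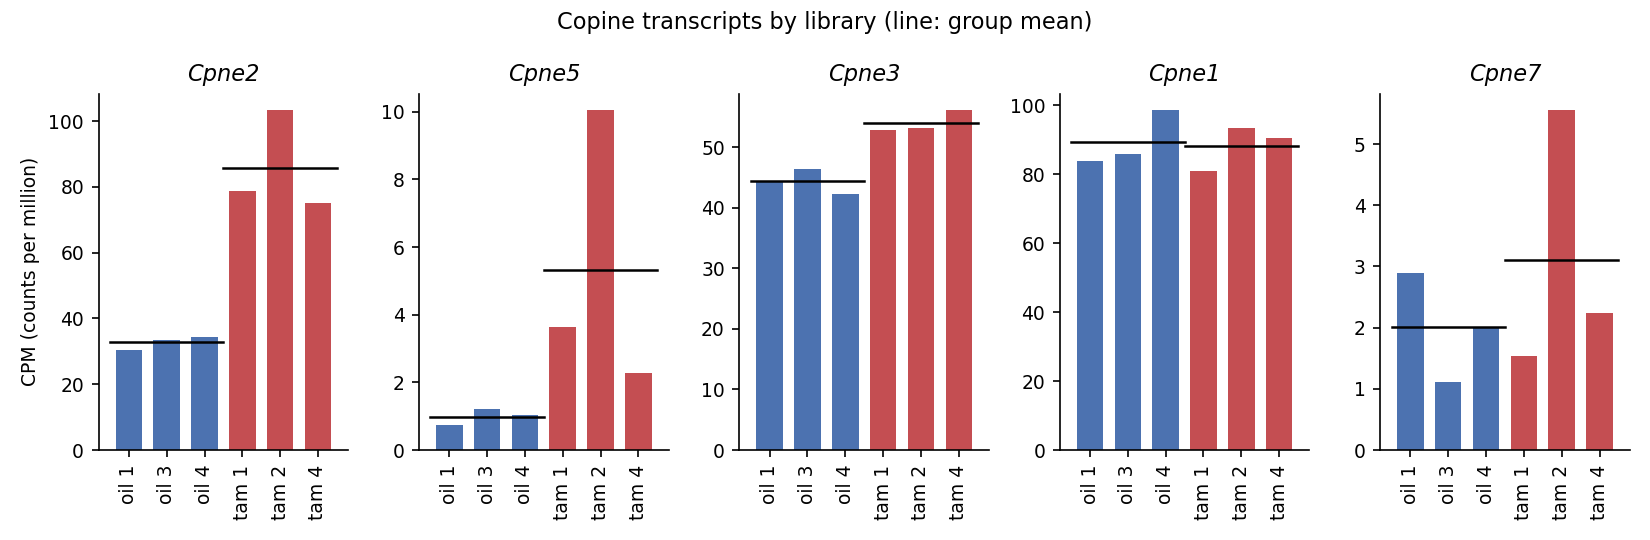
CPM (vertical axes, each from 0 and with its own scale) of the 5 measured copines in each oil (blue) and tamoxifen-labelled (red, tam) library, with a line at each group mean. For Cpne2, Cpne5 and Cpne3 each red bar is taller than each blue bar, while Cpne1 and Cpne7 overlap and tamoxifen 2 is the tallest bar for Cpne2, Cpne5 and Cpne7.

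Of the 7 members, 5 passed the filter on low counts, and each of these had at least 13 counts in every library. Cpne2 was the 1 member with an edgeR adjusted p under 0.05, against 2.01% of the 11614 genes tested in either direction and 1.75% in the direction of Cpne2. Of the 5 copines that passed, 3 had no overlap between the groups, with the libraries labelled tamoxifen higher, a pattern seen in 13.3% of all tested genes. The call of Cpne2 was lost when oil 1, oil 3 or oil 4 was left out, and in fits without any 1 library other than tamoxifen 4 edgeR called 8 to 16 genes of the whole table as higher and 0 as lower. Without tamoxifen 4 the same threshold took in Cpne2, Cpne3 and Cpne5, but it then took in 36.3% of all genes tested. Because the family was selected on this comparison, nothing is read from these counts.

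The plot of fold changes by setting shows how far the processing moved each member. Over 14 alternatives the log2 fold change ran from 0.24 to 0.33 for Cpne3, from -0.09 to 0.05 for Cpne1, from 1.23 to 1.47 for Cpne2 and from 1.56 to 2.76 for Cpne5. For Cpne7 it ran from -0.39 to 0.98 over 13 alternatives, the widest of these ranges. All of these fits use the libraries on which the family was chosen. Only Cpne1 and Cpne7 changed sign in these alternatives.

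**Figure D2:**
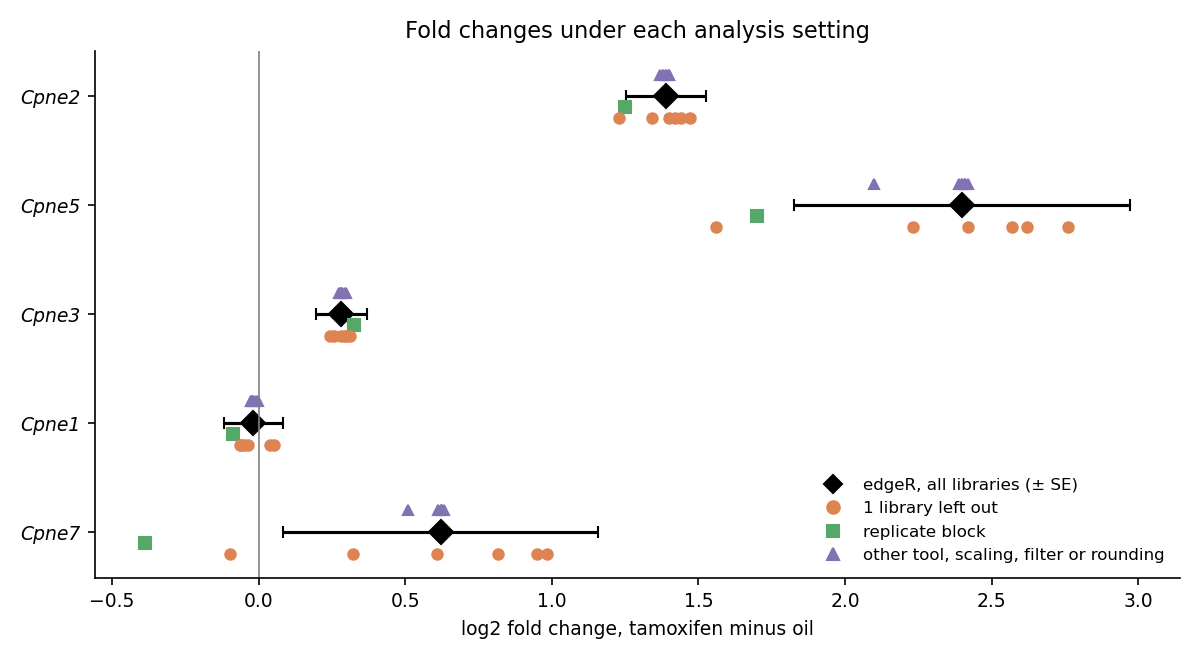
Log2 fold change, tamoxifen-labelled minus oil (horizontal axis), of the 5 measured copines (rows) with all libraries (black diamond, bar of 1 SE), with 1 library left out (orange), with the replicate number as a block (green square) and with other tools, scalings, filters or rounding (purple). Cpne2 stays between 1.23 and 1.47, while Cpne7 crosses 0.

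Per transcript length the order of the copines differed between the groups. Levels between genes were compared as CPM per kilobase of the longest coding transcript, a level that assumes this transcript is the one expressed. In oil the order was Cpne1 at 25.6 ± 2.27, Cpne2 at 14.0 ± 0.879, Cpne3 at 7.86 ± 0.369, Cpne7 at 0.837 ± 0.372 and Cpne5 at 0.174 ± 0.0424 CPM per kilobase (SD, n = 3). No neighbours in that order overlapped in their libraries. In the libraries labelled tamoxifen Cpne2 came first at 36.6 ± 6.53 CPM per kilobase, above Cpne1 at 25.3 ± 1.89, Cpne3 at 9.56 ± 0.318, Cpne7 at 1.30 ± 0.894 and Cpne5 at 0.932 ± 0.726 (SD, n = 3). Cpne7 and Cpne5 overlapped there and were not separated. With the coding length in place of the transcript length, Cpne1 came first in both groups, Cpne3 lay above Cpne2 in oil, and Cpne1 and Cpne2 overlapped in the libraries labelled tamoxifen, so the exchange of the first place depends on the length used.

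**Figure D3:**
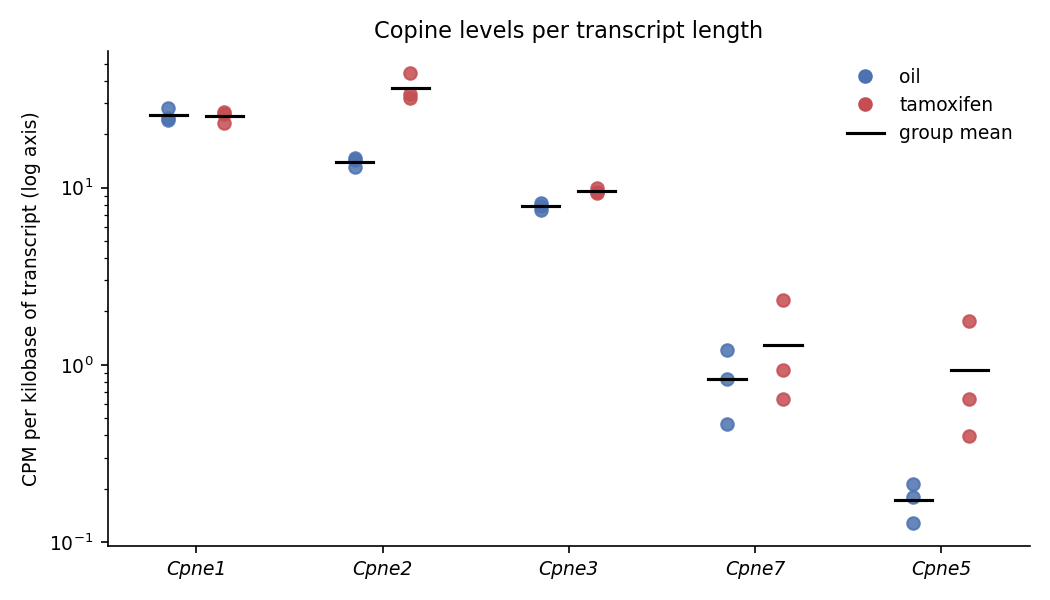
CPM per kilobase of the longest coding transcript (vertical log axis) of the 5 measured copines in each oil (blue) and tamoxifen-labelled (red) library, with group means as lines. The red Cpne2 points lie above the red Cpne1 points, while the blue Cpne2 points lie below the blue Cpne1 points.

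The ratio of 2 copines within a library does not depend on how libraries are scaled to each other. Cpne2 per kilobase relative to Cpne1 was 0.541, 0.581 and 0.520 in oil 1, 3 and 4, compared with 1.45, 1.64 and 1.24 in tamoxifen 1, 2 and 4. The ratio thus rose above the oil range in each library labelled tamoxifen, with means of 0.547 ± 0.0312 and 1.44 ± 0.204 (SD, n = 3). Cpne2 relative to Cpne3 was 1.78 ± 0.159 in oil and 3.84 ± 0.758 in the libraries labelled tamoxifen, again with no overlap. As a share of the summed copine level per kilobase, Cpne2 was 28.1% to 29.9% in oil and 46.3% to 52.3% in the libraries labelled tamoxifen, and Cpne1 was 51.5% to 54.9% and 31.8% to 37.4%. The sizes of these ratios and shares hold for the longest coding transcript only. Per kilobase of coding length the mean of Cpne2 stayed below that of Cpne1. These means were 19.9 and 55.6 CPM in oil and 52.1 and 54.9 CPM in the libraries labelled tamoxifen. The summed CPM of the 7 members was 169.6 ± 7.98 in oil and 236.4 ± 25.5 in the libraries labelled tamoxifen (SD, n = 3), and most of that difference came from the Cpne2 values above.

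The promoter windows of the copines ranged widely in base composition, from 54.0% to 76.4% G and C. RefSeq (GRCm38.p6) gave a start site for Cpne1, Cpne2, Cpne4, Cpne5 and Cpne8. For Cpne2, whose rise led to the choice of the family, and Cpne1, whose groups overlapped, the bases of the 250-base window before the RefSeq start that also lie before the GENCODE gene are shown 5′ to 3′ on the gene's strand, with CpG dinucleotides in capitals. They cover chr8:94532778-94532989 on the plus strand and chr2:156111966-156112215 on the minus strand.
Cpne2: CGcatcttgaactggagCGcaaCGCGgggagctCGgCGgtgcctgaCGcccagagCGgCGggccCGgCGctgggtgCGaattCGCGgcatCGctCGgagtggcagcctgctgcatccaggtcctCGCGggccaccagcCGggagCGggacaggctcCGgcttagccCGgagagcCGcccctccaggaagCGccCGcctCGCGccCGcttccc
Cpne1: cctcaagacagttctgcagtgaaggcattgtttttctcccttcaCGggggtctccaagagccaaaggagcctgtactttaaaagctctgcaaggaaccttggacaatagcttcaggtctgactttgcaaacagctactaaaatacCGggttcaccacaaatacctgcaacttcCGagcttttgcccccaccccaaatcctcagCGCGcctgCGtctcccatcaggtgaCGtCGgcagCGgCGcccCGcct
The Cpne2 stretch holds 28 CpG in 212 bases and the Cpne1 stretch 11 in 250 bases. Over the full 250-base windows, Cpne2 had 74.4% G and C and 32 CpG, Cpne5 76.4% and 27, and Cpne1 54.0% and 11, against medians of 52.4% and 6 over 32851 mouse promoters. Cpne8, with 0.5 counts in 1 library and 0 in the rest, had the same 74.4% as Cpne2 with 28 CpG, and the windows of the undetected Cpne4 had 59.6% with 13 CpG and 56.8% with 1. The Cpne5 window lies wholly inside the bounds of the GENCODE gene and is not printed.

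A set of 6 short motifs was searched on both strands of the same windows, the interferon-stimulated response element, the p53 consensus unit, the NF-kB site, the STAT-bound GAS (TTCNNNGAA), the RUNX core (TGTGGT) and the E-box (CACGTG). None matched in the Cpne2 or the Cpne5 window. The Cpne1 window held 1 NF-kB match and 1 RUNX match, which did not overlap each other. The Cpne8 window held 1 NF-kB match. The Cpne4 window with 13 CpG held 1 match each of the NF-kB site, the RUNX core and the E-box. Its window with 1 CpG held 1 RUNX match. Of all promoters, 5.09% held the interferon element, 7.13% the p53 unit, 7.25% the NF-kB site, 7.02% the GAS, 14.0% the RUNX core and 6.02% the E-box. A missing match says only that these letters are not in this window.

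The called genes among the copines' neighbours were Cdkn1a and Rab44. The nearest coding genes by start position, up to 2 on each side of each member, made a list of 28. Of that list, 25 were in the table and 17 were tested. Of these 17, edgeR called 2 higher and 0 lower at an adjusted p under 0.05 (11.8%, against 2.01% of all genes tested), and both lie on the same side of Cpne5. DESeq2 called 4, adding Sult5a1 beside Cpne7 and Nudt16 beside Cpne4, against 8.13% of all genes with that tool, and limma-voom called Cdkn1a, against 0.465%. The median log2 fold change of the 17 was 0.07, against 0.00 over all genes tested.

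Cdkn1a, which encodes the cell cycle inhibitor p21 and lies 54828 bases from Cpne5, had 18.2, 22.3 and 15.5 CPM in oil 1, 3 and 4, compared with 95.7, 118.2 and 95.3 CPM in tamoxifen 1, 2 and 4. All libraries labelled tamoxifen were far above the oil libraries (log2 fold change 2.47, SE 0.16, edgeR adjusted p = 0.00286, and 2.52 without tamoxifen 4). Rab44, a large Rab GTPase of immune cells that lies between Cdkn1a and Cpne5, 6575 bases from Cpne5, had 48.1, 48.2 and 51.6 CPM in oil and 200.1, 313.2 and 90.4 CPM in tamoxifen 1, 2 and 4. It was also higher in each library labelled tamoxifen (log2 fold change 2.03, SE 0.38, edgeR adjusted p = 0.0429, and 2.38 without tamoxifen 4), and like Cpne5 it was highest in tamoxifen 2 and lowest of its group in tamoxifen 4. The call of Rab44 was lost with limma-voom, with a stricter filter and on leaving out any 1 library other than tamoxifen 4. On the other side of Cpne5, Ppil1, which encodes a spliceosome-associated isomerase, had a log2 fold change of -0.18 (SE 0.12, edgeR adjusted p = 0.418). Beyond it, BC004004 was higher in each library labelled tamoxifen but short of the threshold (log2 fold change 0.28, SE 0.10, edgeR adjusted p = 0.174).

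Cpne2 had no called neighbour. Nlrc5, the transactivator of MHC class I genes, lies 5717 bases from Cpne2 on the same strand and had 1.18, 3.05 and 2.86 CPM in oil 1, 3 and 4, compared with 7.08, 5.05 and 2.76 CPM in tamoxifen 1, 2 and 4. The groups overlapped through tamoxifen 4 (log2 fold change 1.06, SE 0.44, edgeR adjusted p = 0.234), and without tamoxifen 4 the gene passed the threshold at a log2 fold change of 1.35. On the other side, Fam192a, on the opposite strand 3606 bases away, had a log2 fold change of -0.02 (edgeR adjusted p = 0.924). The outer neighbours were also short of the threshold, with 0.15 for Herpud1, a gene of the endoplasmic reticulum stress response (edgeR adjusted p = 0.483), and 0.07 for Rspry1 (edgeR adjusted p = 0.701). The neighbour of Cpne7 on the opposite strand, Sult5a1, a sulfotransferase gene, had 1.94, 2.93 and 2.21 CPM in oil and 5.38, 8.47 and 3.51 CPM in the libraries labelled tamoxifen, without overlap but short of the threshold (log2 fold change 1.30, SE 0.36, edgeR adjusted p = 0.108, and 1.56 without tamoxifen 4). Nudt16, a nucleotide hydrolase gene 94358 bases from Cpne4, had 16.9, 15.3 and 21.3 CPM in oil, compared with 36.2, 43.7 and 18.2 CPM in tamoxifen 1, 2 and 4. Its groups overlapped through tamoxifen 4 (log2 fold change 0.87, SE 0.30, edgeR adjusted p = 0.173, and 1.16 without tamoxifen 4).

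**Figure D4:**
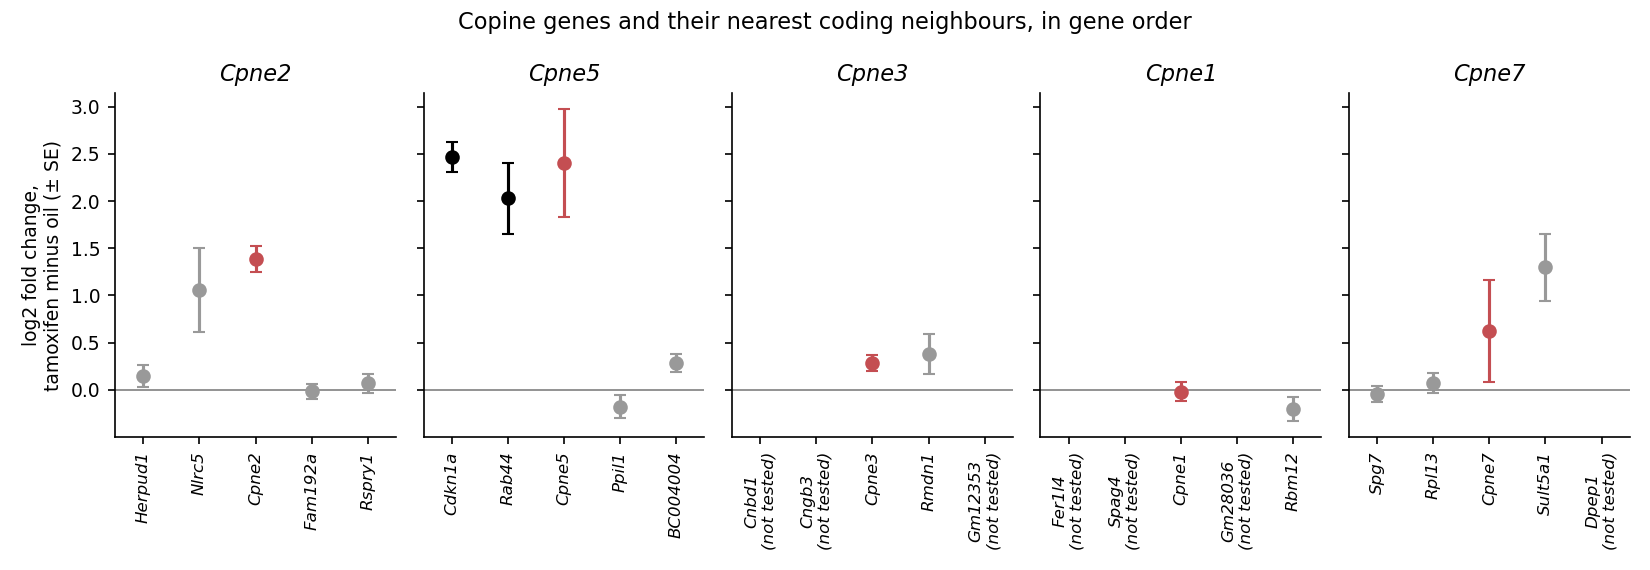
Log2 fold change, tamoxifen-labelled minus oil (vertical axis, bars of 1 SE), of the 5 measured copines (red) and of up to 2 coding genes on each side, in gene order along the chromosome and not to distance. Black points were called by edgeR and grey points were not. Only Cdkn1a and Rab44 beside Cpne5 are black, at 2.47 and 2.03.

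With all libraries, the partners described for copines differed little. The list held 9 genes for proteins reported to bind a copine, of which 8 were tested (Erbb2 was below the filter), and edgeR called 0 of them, with 1 of the 8 at an unadjusted p under 0.05, against 20.6% of all genes tested, while DESeq2 and limma-voom also called 0. Their median log2 fold change was -0.07. Rac1, a small GTPase of the actin cytoskeleton, had 353.7, 371.5 and 354.7 CPM in oil and 422.3, 423.3 and 390.2 CPM in the libraries labelled tamoxifen, higher in each but short of the threshold (log2 fold change 0.19, SE 0.08, edgeR adjusted p = 0.232, and 0.23 without tamoxifen 4). Ppp5c, a serine/threonine phosphatase, had a log2 fold change of -0.24 (SE 0.20, edgeR adjusted p = 0.507, and -0.51 without tamoxifen 4). Without tamoxifen 4, edgeR called 4 of the 8, against 36.3% of all genes.

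Other proteins that read calcium at membranes were compared in the same fit. Of 50 genes for C2-domain proteins other than copines, 21 were tested and edgeR called 0, with 5 of the 21 at an unadjusted p under 0.05, against 20.6% of all genes. Limma-voom called 0, and DESeq2 called 3 of the 21, namely Prkca, Prkcb and Syt5, against 8.13% of all genes. Their median log2 fold change was 0.19. Prkcb, a conventional protein kinase C, had 1.18, 0.630 and 0.206 CPM in oil 1, 3 and 4, compared with 3.79, 4.34 and 1.55 CPM in tamoxifen 1, 2 and 4. The groups did not overlap (log2 fold change 2.27, SE 0.60, edgeR adjusted p = 0.101, and 2.61 without tamoxifen 4). Sytl2, a synaptotagmin-like gene of vesicle traffic, had a log2 fold change of 1.37 with a large error (SE 1.07, edgeR adjusted p = 0.469).

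Among the annexins, which bind the same membranes through a different fold, 7 of 12 were tested and edgeR called 0, with 3 of the 7 at an unadjusted p under 0.05, against 20.6% of all genes. DESeq2 called 1, Anxa5, against 8.13%, and limma-voom called 0. Anxa5, which encodes annexin V, had 66.2, 66.5 and 67.1 CPM in oil and 136.6, 162.3 and 88.6 CPM in tamoxifen 1, 2 and 4. Each library labelled tamoxifen was higher, with tamoxifen 4 nearest to oil (log2 fold change 0.96, SE 0.20, edgeR adjusted p = 0.0529, and 1.17 without tamoxifen 4). Anxa11 had a log2 fold change of 0.73 (SE 0.26, edgeR adjusted p = 0.188). Of the 12 genes for calcium entry and stores, all were tested and edgeR called 0, with 4 at an unadjusted p under 0.05, against the same 20.6%, and DESeq2 and limma-voom called 0. The largest values among them were 0.58 for the store-operated channel gene Orai2 (edgeR adjusted p = 0.215) and 0.52 for the store release channel gene Itpr1 (edgeR adjusted p = 0.222). The medians were 0.25 for the annexins and 0.12 for the calcium genes on the log2 scale, against 0.00 over all genes. Without tamoxifen 4 edgeR called 8 of 23 C2-domain genes tested, 5 of 8 annexins and 5 of 12 calcium genes, against 36.3% of all genes tested in that fit.

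**Figure D5:**
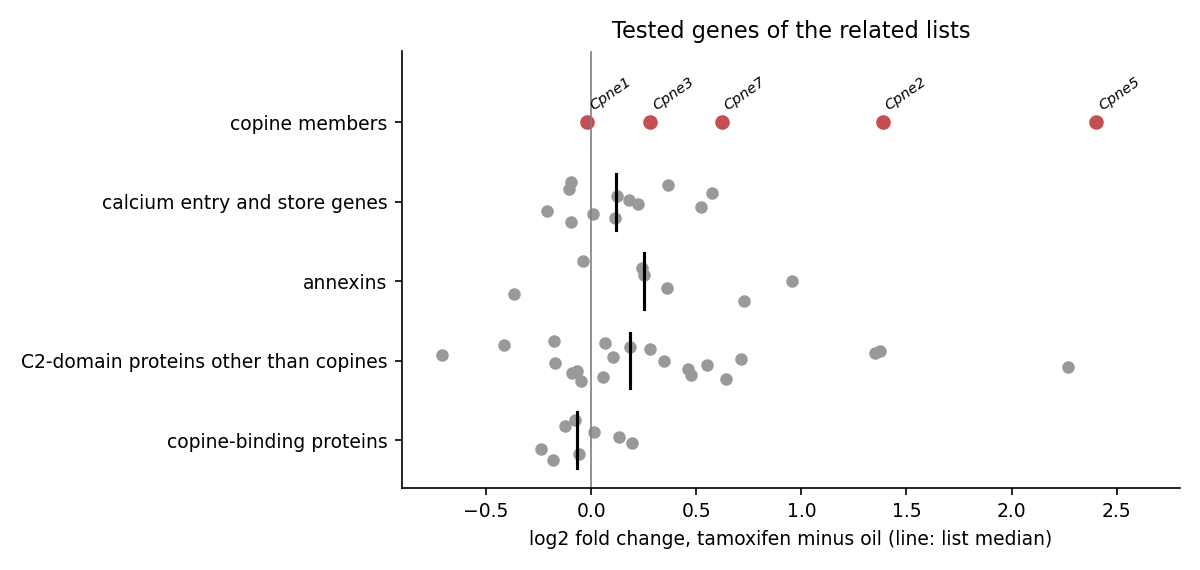
Log2 fold change, tamoxifen-labelled minus oil (horizontal axis), of each tested gene (points) of the related lists (rows), with the list median as a line and the 5 measured copines in red. Cpne2 at 1.39 and Cpne5 at 2.40 lie beyond the copine-binding genes, which run from -0.24 to 0.19. The C2-domain genes run from -0.71 to 2.27, a range that includes Cpne2.

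Pearson's r with Cpne2 was taken on log2 CPM over the 6 libraries, for 11122 tested genes with a mean of at least 1 CPM. The 5 genes that followed Cpne2 most closely were named. They were H13, a signal peptide peptidase (0.996), the formin Inf2 (0.995), the peptidoglycan amidase Pglyrp2 (0.995), the interferon-induced Ifitm2 (0.995) and the F-box gene Fbxw8 (0.994). Their fold changes were unlike, from a log2 fold change of 0.27 for H13 to 1.94 for Inf2. As many as 583 genes (5.24%) had an r over 0.9, since the 6 points form the 2 groups and share libraries. Among the copines r with Cpne2 was 0.938 for Cpne5, 0.901 for Cpne3, 0.454 for Cpne7 and 0.031 for Cpne1.

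Some markers of the sort gate and of other cell types moved with the groups. Kit, the gate gene, had 439 to 451 CPM in oil and 651, 782 and 447 CPM in tamoxifen 1, 2 and 4. Among the genes for lineage antigens of the gate, Cd3e, Cd8a and Ly6g were at 0 in all libraries. The 12 mast cell genes, all tested, summed to 3190 to 3360 CPM in oil and 5100, 7940 and 3870 CPM in tamoxifen 1, 2 and 4. Cpne2 and Cpne5 had the same order of these libraries, but so did Kit and the macrophage, T and NK cell and erythroid sums. The sums of the lineage gate, neutrophil, B cell and dendritic cell genes had other orders. Of the mast cell genes edgeR called 2, Fcer1a and Tpsb2, both higher.

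Of the 9 macrophage genes, 8 were tested and 1 was called, Hmox1, and their sum was 5.57 to 9.82 CPM in oil and 18.5, 24.4 and 9.86 CPM in tamoxifen 1, 2 and 4. The 8 T and NK cell genes summed to 1.13 to 2.47 CPM and to 20.0, 56.4 and 7.65 CPM, nearly all of it Nkg7, which was called, while Cd3e, Cd3g, Cd8a, Gzma, Prf1 and Ncr1 were at 0. The 9 erythroid genes ran from 4910 to 7230 CPM in oil and from 4040 to 8070 CPM in the libraries labelled tamoxifen. Neutrophil, B cell and dendritic cell genes summed to at most 1.09, 0.878 and 5.60 CPM in any library. The part of these cells or states in the copine values was not tested.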

How the data were processed

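Bulk RNA sequencing of 3 oil and 3 tamoxifen libraries was analysed. The deposited table gives the authors' estimated counts by gene symbol, unscaled between libraries, in which 25.9% to 27.4% of the values of a library were not whole. The submitters' processing notes name STAR, DESeq2 and mm10; the counting program, strand setting and annotation were not given in the sources used here. Counts were rounded, and 11614 genes passed edgeR's filter for expressed genes. The 26 rows whose symbol had become a date entered the filter and the fits under placeholder names. They were left out of the correlations with Cpne2.

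Groups were compared with edgeR 4.0.16 (quasi-likelihood test, trimmed-mean normalization, Benjamini-Hochberg adjustment over all tested genes, threshold 0.05) in R 4.3.3. Alternatives used limma 3.58.1 (voom), DESeq2 1.42.0, other scalings and filters, a replicate block and leaving out each library. The code was tested on simulated data. CPM used the normalized library sizes. The members and lists were chosen with earlier results of these data known. Genes were named as all members, every neighbour of Cpne2, the called neighbours of the others, the called genes of each list (at most 4) or else the 2 with the largest fold changes, and the 5 most like Cpne2. Ppil1, BC004004, Rbm12, Sult5a1, Nudt16 and the genes called by DESeq2 alone were chosen after their values were seen, as were the called markers.

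Libraries carry the numbers of the count table. Those of oil 3 and tamoxifen 2 differ from the sample titles, so both were mapped to a group only. The study's methods give 3 mice a group. Gene positions came from GENCODE M21 and promoters from RefSeq, which matched 5 of the 7 members. Part of the marker results is not reported here.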

Additional observations from a re-analysis of the deposited data

How the results depend on the processing

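Of the 7 copines, the number called (Cpne2 alone with edgeR) was 2 with DESeq2 and 2 without a low-count filter, both adding Cpne5, and 0 to 3 when 1 library was left out. It was 0 without each oil library in turn and 3 without tamoxifen 4. These fits use the libraries on which the family was chosen, so nothing is read from them about the copines. Leaving out 1 library gave log2 fold changes of -0.0643 to 0.0524 for Cpne1 (positive without oil 4, 0.0524, and without tamoxifen 1, 0.0404) and of -0.097 to 0.983 for Cpne7, and the replicate block gave -0.389 for Cpne7. Leaving out 1 library gave 0 to 4 called copine-binding genes, 0 to 8 C2-domain genes, 0 to 5 annexins, 0 to 5 calcium genes and 1 to 9 neighbours, with each upper value reached without tamoxifen 4. The C2-domain count of 0 was 3 with DESeq2 and 1 without the filter. The annexin count of 0 was 1 with upper-quartile scaling, with DESeq2, without the filter and with the replicate block. The neighbour count of 2 was 4 with DESeq2, 1 with limma-voom and 1 with a mean of at least 50 counts. Ordering by coding length moved 2 copines in oil. By Spearman correlation 153 genes tied at the highest value with Cpne2, and 1 of the 5 genes named by Pearson correlation was among them. Over all genes, edgeR called 203 higher and 31 lower, DESeq2 713 and 231, limma-voom 48 and 6, and without the filter 372 and 61, while leaving out 1 library gave 8 to 2278 higher and 0 to 2024 lower. The causes were not tested.

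Only the numbers 1 and 4 occur in both groups, and the correlations of the deviations of same-numbered libraries were -0.127 and 0.0616. So few values cannot decide whether same-numbered libraries were linked. In the fit with the replicate block, oil 3 and tamoxifen 2 carry no information on the comparison, and 1 copine was called, with a log2 fold change of 1.25 for Cpne2 and 1.70 for Cpne5. Depth limits the lowest copines, since 3 counts equal 0.145 to 0.177 CPM.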
